A study of Mus musculus with 18 samples.

Results

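Glul, Cyp2e1, Cyp1a2, Oat, Lgr5, Axin2, Tbx3, Rhbg, Slc1a2 and Rgn are markers of pericentral hepatocytes, the liver cells that surround the central vein of the lobule. They were taken by name from a table of estimated RNA-seq counts of mouse liver, and all 10 were found among its 16245 genes. The samples were livers of 18 male wild-type C57BL/6 mice (C57BL/6J in the study's methods), 6 in each of the groups Vehicle, GDF15 and PairFed. From 8 weeks of age all of these mice, controls included, lived at 29 °C and ate a NASH diet, a feed high in fat and fructose with added cholesterol that models non-alcoholic steatohepatitis, and they were caged alone for the treatment. GDF15, a cytokine released into blood under cell stress, reduces appetite through the hindbrain receptor GFRAL. Mice of the GDF15 group were injected under the skin once each morning with recombinant GDF15. The protocol lists doses of 0.3, 1 and 5 nmol/kg without saying which one the sequenced mice had. The study's text and its figure legend name different doses for these livers, so no dose is attached to the values here. Each day the PairFed mice were given as much food as the GDF15 mice had eaten on the previous day. GDF15 against PairFed therefore asks what differed at matched food intake, and PairFed against Vehicle what the smaller ration did by itself.

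Hepatocytes divide their work along the axis from the portal tract to the central vein. Endothelial cells of the central vein secrete Wnt ligands and R-spondins, and the resulting β-catenin signal in neighbouring hepatocytes switches on glutamine synthesis, drug-metabolizing cytochromes and a set of feedback regulators. Periportal hepatocytes, at the opposite end, carry out urea synthesis and gluconeogenesis. The pericentral ring clears the ammonia that escapes urea synthesis, and it is the zone where Cyp2e1 activates toxins such as acetaminophen. Whole liver was sequenced, so the position of a transcript in the lobule was not measured, and a lower number of cells of a type cannot be told apart from less RNA per cell.

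The promoters of 6 of the 10 genes (Glul, Slc1a2, Oat, Cyp2e1, Cyp1a2 and Axin2) were matched in RefSeq (build GRCm38.p6) and were searched on both strands from 250 bases before to 50 bases after the transcription start. The letters CTTTGAT and CTTTGAA are core sequences recognized by TCF/LEF, the DNA-binding partners of β-catenin. At least one of them was present in 3 of the 6 promoters, and in 8.65% of all 32851 promoters of that length. CTTTGAT was in the Slc1a2 promoter and in 3.73% of all promoters, and CTTTGAA was in those of Cyp2e1 and Cyp1a2 and in 5.14% of all. TATAAA, the TATA box, was in the Cyp2e1 and Cyp1a2 promoters and in 13.6% of all promoters. GCGTG, the core of the binding site of the aryl hydrocarbon receptor, was in 0 of the 6 and in 32.4% of all. None of these motifs overlaps another in the 6 promoters. The 250 bases before the start are shown for the cytochromes and Slc1a2, which carried the matches and whose RNA differed between groups, and for Glul, whose RNA was not called different. They are written 5′ to 3′ on the strand of the gene, with matches to the TCF/LEF and TATA letters, on either strand, in capitals.
Cyp2e1 (chr7:140763569-140763818, plus strand): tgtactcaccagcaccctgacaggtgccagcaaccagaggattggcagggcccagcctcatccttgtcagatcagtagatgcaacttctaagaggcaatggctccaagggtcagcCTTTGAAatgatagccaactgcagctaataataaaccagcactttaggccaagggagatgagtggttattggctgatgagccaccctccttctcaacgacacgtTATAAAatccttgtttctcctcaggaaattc
Cyp1a2 (chr9:57683656-57683905, minus strand): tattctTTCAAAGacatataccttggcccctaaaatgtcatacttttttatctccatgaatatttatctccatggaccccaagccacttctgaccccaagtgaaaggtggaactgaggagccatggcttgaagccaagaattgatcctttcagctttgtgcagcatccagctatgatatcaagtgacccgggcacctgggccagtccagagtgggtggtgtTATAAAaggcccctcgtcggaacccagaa
Slc1a2 (chr2:102706188-102706437, plus strand): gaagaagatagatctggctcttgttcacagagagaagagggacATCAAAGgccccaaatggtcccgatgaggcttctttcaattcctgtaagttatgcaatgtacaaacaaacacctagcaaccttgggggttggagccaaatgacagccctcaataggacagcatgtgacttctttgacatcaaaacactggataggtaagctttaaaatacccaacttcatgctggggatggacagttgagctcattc
Glul (chr1:153899679-153899928, plus strand): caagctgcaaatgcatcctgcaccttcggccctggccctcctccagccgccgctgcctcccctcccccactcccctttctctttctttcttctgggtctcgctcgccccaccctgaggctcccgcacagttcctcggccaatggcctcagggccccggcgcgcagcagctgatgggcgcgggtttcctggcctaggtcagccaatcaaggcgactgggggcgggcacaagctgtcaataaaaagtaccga
The CTTTGAA of Cyp2e1 lay on the gene's strand 135 to 129 bases before the start, that of Cyp1a2 on the opposite strand at 244 to 238 bases, and the CTTTGAT of Slc1a2 on the opposite strand at 207 to 201 bases. The TATA boxes began 31 (Cyp2e1) and 29 (Cyp1a2) bases before the start. The RefSeq starts used for Cyp2e1 and Cyp1a2 lie just inside the genes as annotated by GENCODE, and that used for Glul lies before the annotated gene. The start used for Slc1a2 lies far inside its gene, which GENCODE begins at chr2:102658659. The Slc1a2 window and its CTTTGAT are therefore not at the annotated beginning of that gene. These are matches of letters in a window and say nothing of binding in these livers. Lgr5, Tbx3, Rhbg and Rgn, whose RNA also differed, had no matched promoter, and a relation of matches to RNA differences was not tested.

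In GDF15-treated livers, 6 of the 10 genes were higher than in Vehicle livers and 1 was lower at an adjusted p under 0.05, the threshold used throughout for a call (DESeq2 Wald test, Benjamini-Hochberg over all genes tested). Cyp1a2, Cyp2e1, Rgn, Slc1a2, Tbx3 and Lgr5 rose and Rhbg fell, whereas Glul, Oat and Axin2 did not pass. Among all 14667 genes tested, 33.3% were called, 15.8% as higher and 17.5% as lower. The same 7 genes were called in the same directions against PairFed livers, where 27.1% of 14353 genes were called, 13.3% higher and 13.8% lower. The comparisons share the GDF15 samples, so the repetition is not a second, independent observation. With the fold threshold that the study's methods add (absolute log2 fold change above 1), Cyp1a2 remained against Vehicle, where 0.900% of genes passed as higher and 5.37% as lower, and 0 of the 10 genes remained against PairFed, where those shares were 0.627% and 2.75%. The median log2 fold change of the 10 genes was 0.47 against Vehicle and 0.44 against PairFed, beside 0.02 and 0.01 over the 12883 genes that averaged 10 or more normalized counts. The 7 general hepatocyte markers named below had similar medians of 0.42 and 0.49, with 5 called higher and 0 lower in each comparison. No gene of the 10 was called between PairFed and Vehicle. Neither was any of the 16242 genes tested by DESeq2 or of the 12992 tested by edgeR (0% called in each). Of the 16242 genes, 718 had an unadjusted p under 0.05 in DESeq2. Other DESeq2 fits called a few genes in that comparison, 1 higher and 2 lower with a replicate block, 3 higher and 1 lower in replicates 1 to 3 and 7 higher and 11 lower in replicates 4 to 6, but none of the 10.

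**Figure D1:**
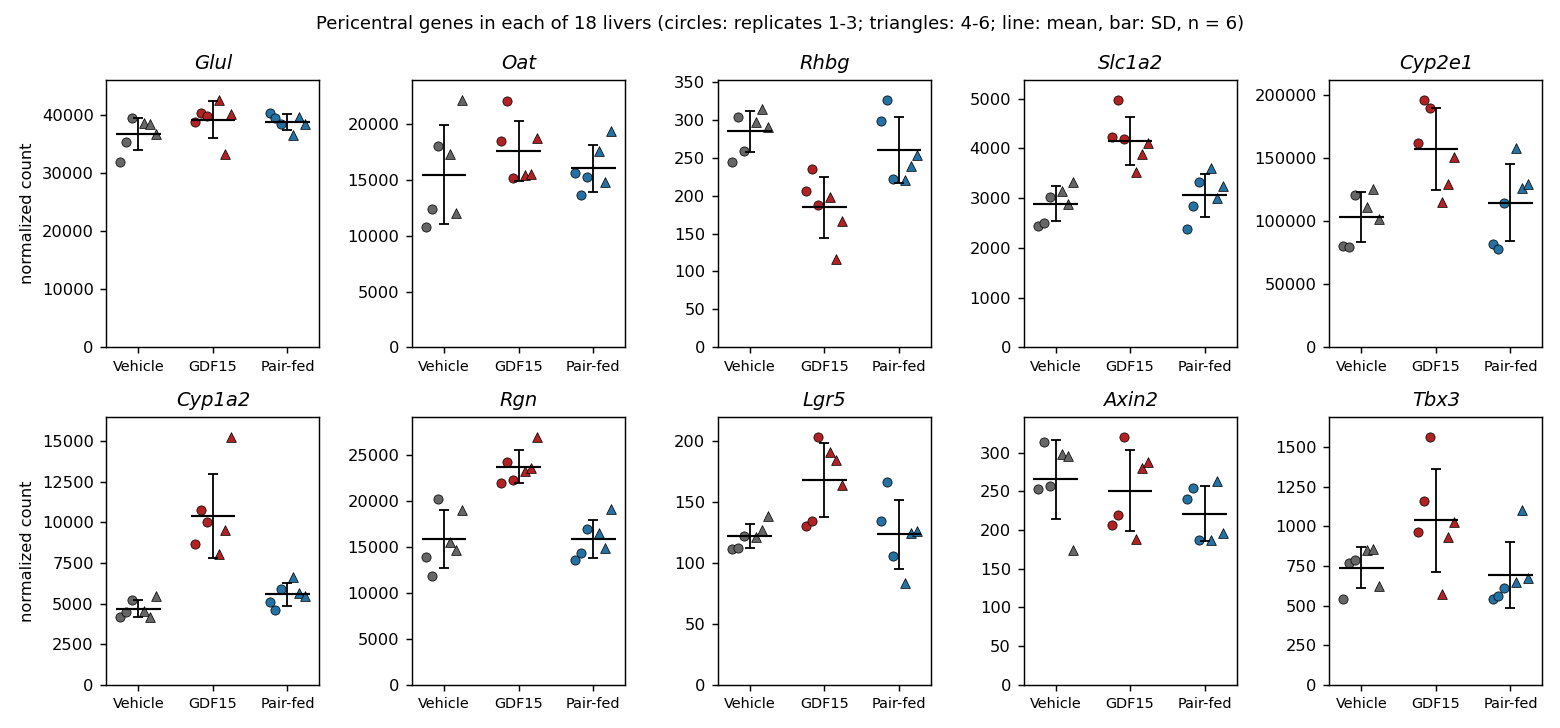
Normalized count (estimated count divided by the DESeq2 size factor, linear axis from 0) of each pericentral gene in each of the 18 livers, by group. Circles are replicates 1 to 3, triangles replicates 4 to 6, the horizontal line is the mean and the bar the SD of 6 livers. All 6 GDF15 livers lie above every control for Cyp1a2 and Rgn, and the 3 groups overlap for Glul, Oat and Axin2.

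Library totals were 16508864 to 35301853 estimated counts, so that the floor of 3 counts was 0.0850 to 0.182 CPM (counts scaled to the library total), and all 10 genes were far above it in every liver. The hepatocyte markers were abundant in all samples, with 7 of 8 listed (Alb, Apoa1, Ttr, Hnf4a, Serpina1a, Fgb, Apob) summing to 1376900 to 2091306 normalized counts in the controls and 2108653 to 2452047 in the GDF15 group. Marker genes of several other cell types were called lower in GDF15 than in Vehicle livers. The 9 stellate cell and fibroblast genes summed to 8100 to 14831 in Vehicle, 7089 to 12169 in PairFed and 3944 to 5725 in GDF15 livers, with 8 of 9 lower against Vehicle. The 6 cholangiocyte genes summed to 2372 to 8649, 2159 to 6026 and 1030 to 2097, with 6 of 6 lower against Vehicle, and the 9 macrophage genes to 3926 to 8087, 3870 to 6368 and 2609 to 5169, with 7 of 9 lower. The 5 proliferation genes summed to 271 to 563, 215 to 447 and 132 to 162, with 5 of 5 lower. Against PairFed the numbers lower were 7 of 9 stellate cell and fibroblast, 1 of 6 cholangiocyte, 6 of 9 macrophage and 4 of 5 proliferation genes. In PairFed against Vehicle 0 genes of these lists were called, and all 6 cholangiocyte genes had negative log2 fold changes (median −0.66). The part of these shifts in the pericentral values was not tested. Median-of-ratios size factors, as used in DESeq2, set the scale. With library totals in their place, the median gene moved by −0.17 on the log2 scale against Vehicle and by −0.16 against PairFed, and the share of calls that were higher went from 47.6% to 12.7% and from 49.1% to 12.4%.

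Of the 10 genes, the cytochrome Cyp1a2 had the largest fold change in both GDF15 comparisons. Cyp1a2 (ENSMUSG00000032310.4, chr9:57676937-57683703, minus strand of GRCm38, the mm10 genome, in GENCODE M21) metabolizes caffeine and aromatic amines. Its normalized count had a lowest, median and highest value of 4199, 4505 and 5443 in Vehicle, 4604, 5566 and 6646 in PairFed and 8057, 9800 and 15269 in GDF15 livers. Every GDF15 liver was above every control, and the highest, replicate 6, stood well above the next at 10769. Group means were 10389 ± 2579 (SD, n = 6) in GDF15, 4681 ± 530.3 in Vehicle and 5571 ± 699 in PairFed livers. The level was 2.22-fold that of Vehicle (log2 fold change 1.15 ± 0.13 SE, adjusted p = 4.85e-16) and 1.86-fold that of PairFed (0.90 ± 0.13, adjusted p = 6.52e-10). With library totals as the scale the log2 fold change against Vehicle was 0.98 (adjusted p = 3.13e-14), below the fold threshold of 1.

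Cyp2e1 (ENSMUSG00000025479.9, chr7:140763739-140774987, plus strand) oxidizes ethanol and acetaminophen and was the most abundant of the 10 genes. From lowest through median to highest, its normalized counts were 79670.5, 106909 and 125395 in Vehicle, 77882, 120596 and 158433 in PairFed and 115389, 156788 and 196691 in GDF15 livers. In the GDF15 group 5 of 6 livers were above all Vehicle livers and 3 of 6 above all PairFed livers, so the groups overlapped in both comparisons. The mean of 157517 ± 32192 was 1.52-fold that of Vehicle (103358 ± 19762, log2 fold change 0.61 ± 0.17, adjusted p = 0.00280) and 1.37-fold that of PairFed (114853 ± 30602, 0.46 ± 0.17, adjusted p = 0.0358). The difference from PairFed was not called by edgeR (adjusted p = 0.0612), with library totals as the scale (adjusted p = 0.130), or when any of GDF15 replicates 1, 2 and 3 or PairFed replicates 1, 2 and 3 was left out (adjusted p in these 6 fits 0.0567 to 0.105).

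Genes that act on these cytochromes were fixed as lists. Of 10 regulators and partners of Cyp2e1 and Cyp1a2, 5 were higher against Vehicle and 0 lower (median log2 fold change 0.23), and 2 were higher against PairFed, counts that were 2 and 1 with library totals as the scale. Hnf4a, a transcription factor of the hepatocyte program, rose by 0.54 (adjusted p = 3.93e-15) on the log2 scale against Vehicle. Por, the reductase that feeds electrons to cytochromes, and Nr1i2, the xenobiotic receptor PXR, had log2 fold changes of 0.99 (adjusted p = 0.0193) and 0.25 (adjusted p = 0.0267) against Vehicle and of 0.70 (adjusted p = 0.129) and 0.19 (adjusted p = 0.122) against PairFed. Of 7 genes of the aryl hydrocarbon receptor battery, the classical route of Cyp1a2 induction, 2 were lower against Vehicle (Nqo1 −0.82 and Cyp1b1 −0.96) and 0 higher. Ahr itself had a log2 fold change of 0.23 (adjusted p = 0.306) and Cyp1a1, the companion target next to Cyp1a2, one of 0.22 (0.597), neither of which passed. Against PairFed 1 of the 7 battery genes, Nqo1, was lower and 0 were higher. The route to the rise of Cyp1a2 was not tested.

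Rgn (ENSMUSG00000023070.6, chrX:20549787-20562089, plus strand) encodes regucalcin, the gluconolactonase that acts in the last steps of vitamin C synthesis. Its lowest, median and highest normalized counts were 11857, 15054 and 20209 in Vehicle, 13526, 15671 and 19129.8 in PairFed and 21948, 23344 and 26911 in GDF15 livers. The GDF15 livers lay above all 12 controls and varied less than the Vehicle livers, with a coefficient of variation of 7.62% against 20.1% in Vehicle. The mean of 23660.5 ± 1802 (SD, n = 6) was 1.49-fold that of Vehicle (15837 ± 3183, log2 fold change 0.58 ± 0.12, adjusted p = 8.94e-06) and 1.49-fold that of PairFed (15874 ± 2064, 0.58 ± 0.12, adjusted p = 1.44e-05). Among 4 measured genes of the same pathway, Gulo, the final enzyme, rose by 0.36 (adjusted p = 1.38e-05), while the upstream enzymes Akr1a1, Ugdh and Ugp2 fell by 0.31, 0.61 and 0.29 on the log2 scale against Vehicle. The directions and calls of these 4 genes were the same against PairFed.

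Glul, Slc1a2, Rhbg and Oat handle ammonia and glutamate. Glul (ENSMUSG00000026473.15, chr1:153899944-153909723, plus strand) is glutamine synthetase, the defining enzyme of the innermost pericentral cells. Normalized counts (lowest, median and highest) were 31906, 37496 and 39339.9 in Vehicle, 36467, 38894 and 40284.6 in PairFed and 33231, 39900.1 and 42566 in GDF15 livers. The groups overlapped, and their means of 36678 ± 2747, 38750.1 ± 1352 and 39112 ± 3144 lay close together. The log2 fold change was 0.09 ± 0.06 against Vehicle (95% confidence interval −0.02 to 0.21, adjusted p = 0.234) and 0.01 ± 0.06 against PairFed (−0.10 to 0.13, adjusted p = 0.897). With library totals as the scale the values were −0.08 (adjusted p = 0.265) and −0.16 (adjusted p = 0.0180), the second of which passed as lower, so neither direction nor absence of a change is fixed for Glul. Without GDF15 replicate 5, its lowest GDF15 liver, the value against Vehicle was 0.14 (adjusted p = 0.0333).

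Slc1a2 (ENSMUSG00000005089.15, chr2:102658659-102790784, plus strand) is the glutamate transporter GLT-1, which brings the substrate of glutamine synthetase into pericentral cells. Its lowest, median and highest normalized counts were 2445, 2955 and 3320.3 in Vehicle, 2372, 3114 and 3600.5 in PairFed and 3519, 4149 and 4979 in GDF15 livers. All GDF15 livers were above all Vehicle livers and 5 of 6 were above all PairFed livers. The mean of 4151 ± 483 was 1.44-fold that of Vehicle (2886 ± 351, log2 fold change 0.52 ± 0.10, adjusted p = 8.31e-06) and 1.36-fold that of PairFed (3058 ± 428, 0.44 ± 0.10, adjusted p = 0.000301).

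Rhbg (ENSMUSG00000104445.1, chr3:88242874-88254709, minus strand), an ammonium transporter of the hepatocyte membrane, was the single gene of the 10 that fell. Across livers the lowest, median and highest normalized counts were 244, 294 and 314 in Vehicle, 221, 246 and 326 in PairFed and 117, 193 and 234 in GDF15 livers. All GDF15 livers were below all Vehicle livers, and 5 of 6 were below all PairFed livers. The mean of 185 ± 40.0 was 1.53-fold lower than in Vehicle (284 ± 27.2, log2 fold change −0.62 ± 0.14, adjusted p = 7.02e-05) and 1.40-fold lower than in PairFed (260.0 ± 43.2, −0.49 ± 0.14, adjusted p = 0.00283). Its exons overlap those of Gm38392 on the same strand, which was not among the genes counted.

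Oat (ENSMUSG00000030934.9, chr7:132557478-132576398, minus strand) converts ornithine towards glutamate. Its normalized counts ranged from 10799 to 22191 in Vehicle, from 13641 to 19396 in PairFed and from 15179 to 22028 in GDF15 livers. The Vehicle livers spread over the whole range, with a coefficient of variation of 28.8%, and the log2 fold changes of 0.18 ± 0.15 (95% confidence interval −0.12 to 0.49, adjusted p = 0.377) and 0.13 ± 0.15 (−0.17 to 0.44, adjusted p = 0.569) did not pass. With library totals as the scale the value against PairFed was −0.03.

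Of the other ammonia, glutamate and glutamine genes, 15 of 16 listed were in the table, 14 of them with an adjusted p in the GDF15 comparisons. Against Vehicle 8 were higher and 1 lower (median log2 fold change 0.29), and the counts were also 8 and 1 against PairFed (median 0.32). With library totals as the scale they were 6 and 4 against Vehicle and 5 and 2 against PairFed. Got1, which exchanges amino groups between glutamate and aspartate, rose by 1.18 (adjusted p = 1.97e-06), Gls2, the periportal glutaminase, by 0.60 (adjusted p = 2.24e-05) and Prodh, which degrades proline, by 0.79 (adjusted p = 2.99e-07). The glutamine carriers Slc38a2 and Slc38a3 rose by 0.84 (adjusted p = 2.16e-05) and 0.64 (adjusted p = 0.000902). Against Vehicle the fall of Rhbg thus stood beside higher Slc1a2, Slc38a2 and Slc38a3, while Glul overlapped between groups. With library totals as the scale Slc38a3 did not pass against PairFed (0.35, adjusted p = 0.0544).

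Lgr5, Axin2 and Tbx3 are readouts of the Wnt signal itself. Lgr5 (ENSMUSG00000020140.15, chr10:115450311-115587780, minus strand) is a receptor for R-spondins that potentiates Wnt signalling. Its lowest, median and highest normalized counts were 112, 122 and 139 in Vehicle, 83.3, 126 and 166 in PairFed and 131, 174 and 204 in GDF15 livers. In the GDF15 group 4 of 6 livers were above all Vehicle livers and 3 of 6 above all PairFed livers. The mean of 168 ± 30.4 was 1.37-fold that of Vehicle (122 ± 9.97, log2 fold change 0.46 ± 0.15, adjusted p = 0.00938) and 1.36-fold that of PairFed (mean 124, 0.44 ± 0.15, adjusted p = 0.0131). With library totals as the scale neither value passed (0.28, adjusted p = 0.140, and 0.27, adjusted p = 0.153).

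Tbx3 (ENSMUSG00000018604.18, chr5:119670669-119684724, plus strand) is a transcription factor and Wnt target of pericentral hepatocytes. In normalized counts the lowest, median and highest livers had 542, 778 and 856 in Vehicle, 544, 630 and 1104 in PairFed and 575, 997 and 1564 in GDF15 livers. The GDF15 livers were widely spread, and both their lowest liver and the highest PairFed liver fell in the range of the opposite group. The mean of 1038 ± 323 was 1.40-fold that of Vehicle (739 ± 128, log2 fold change 0.49 ± 0.20, adjusted p = 0.0439) and was also above that of PairFed (690.3 ± 208, log2 fold change 0.59 ± 0.20, adjusted p = 0.0162). The call against Vehicle was lost under edgeR (adjusted p = 0.0646), with library totals (0.194), and without any 1 of Vehicle replicates 1, 2, 3 and 6, GDF15 replicates 1, 2, 3, 5 and 6 or PairFed replicates 3 and 6 (adjusted p in these fits 0.0510 to 0.171). Against PairFed it was lost with library totals (0.0737) and without GDF15 replicate 3 (0.43, adjusted p = 0.0744).

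Axin2 (ENSMUSG00000000142.15, chr11:108920349-108950783, plus strand) is a scaffold of the complex that degrades β-catenin and a general Wnt target. Its lowest, median and highest normalized counts were 174, 276 and 314 in Vehicle, 187, 218 and 264 in PairFed and 189, 250.3 and 320.4 in GDF15 livers. The 3 groups overlapped, and the log2 fold changes of −0.08 ± 0.15 (95% confidence interval −0.38 to 0.22, adjusted p = 0.719) and 0.18 ± 0.15 (−0.12 to 0.48, adjusted p = 0.410) did not pass.

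Of 26 ligands, receptors and intracellular components of the wider Wnt pathway, 6 were higher and 2 lower against Vehicle (median log2 fold change 0.09), and 5 were higher and 1 lower against PairFed (median 0.05). The numbers called, 8 and 6 of 26, were near the shares of all genes called, 33.3% and 27.1%. The ligands of the central vein, Wnt2 and Wnt9b, had log2 fold changes of 0.53 (adjusted p = 0.0900) and 0.34 (0.382) against Vehicle and of 0.02 (0.956) and −0.37 (0.320) against PairFed. Rspo3, the R-spondin of the central vein, fell by 0.32 in both comparisons (adjusted p = 0.0227 and 0.0216). Wls, which carries Wnt ligands out of the cell, fell by 0.64 against Vehicle (adjusted p = 0.00572) and was not called against PairFed. Against Vehicle, Lgr4, the relative of Lgr5, rose by 0.44 (adjusted p = 8.70e-07), and Znrf3, a ubiquitin ligase that removes Wnt receptors, had a log2 fold change of 0.25 (0.0328), while its partner Rnf43 had one of 0.17 (0.392). Of 12 further Wnt targets, 2 were higher and 2 lower, with Notum, a secreted Wnt inhibitor, at 0.66 (adjusted p = 2.85e-07) and Cd44 at −1.21 (adjusted p = 1.06e-07). The other lower target is also among the cholangiocyte genes, all of which were lower against Vehicle. The 7 genes of central vein endothelium summed to 467 to 684 normalized counts in Vehicle, 461 to 830 in PairFed and 488 to 709 in GDF15 livers, ranges that overlapped, with 1 of 7 lower and 0 higher against Vehicle. The lower gene was Rspo3, which, like Wnt2 and Wnt9b, is also counted among the 26 pathway genes. With library totals as the scale the balance of the 26 pathway genes turned, to 1 higher and 5 lower in both comparisons (medians −0.08 and −0.11), and Znrf3 was not called (0.08, adjusted p = 0.625). On that scale Wls was called lower against PairFed (−0.56, adjusted p = 0.0340).

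**Figure D2:**
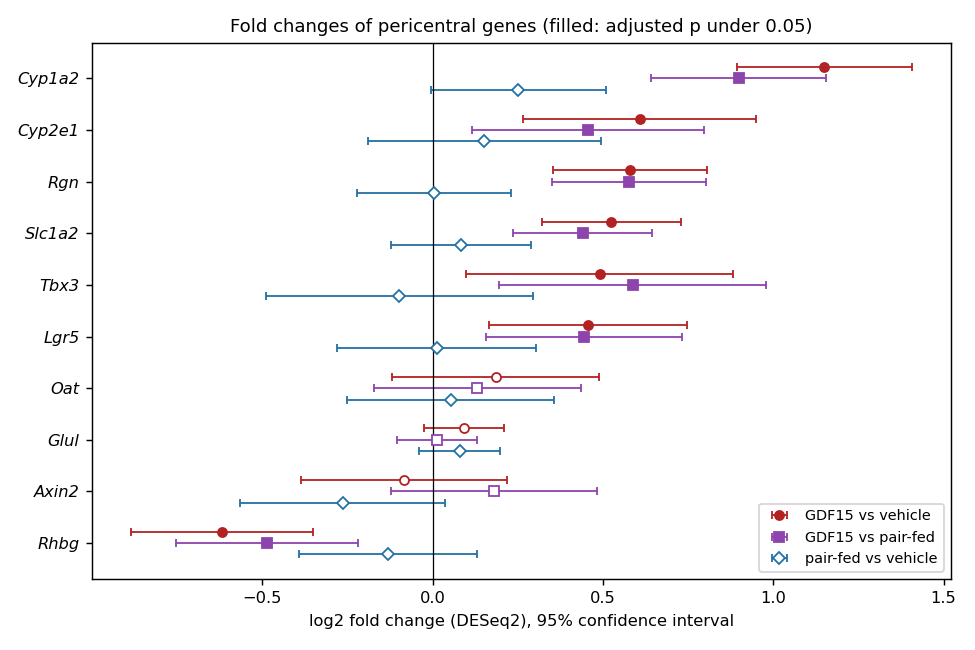
Log2 fold change with its 95% confidence interval (DESeq2) of each pericentral gene for GDF15 against Vehicle (circles), GDF15 against PairFed (squares) and PairFed against Vehicle (diamonds). Filled symbols have an adjusted p under 0.05. Cyp1a2 to Lgr5 lie to the right and Rhbg to the left in both GDF15 comparisons, and every diamond is open.

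In PairFed against Vehicle, log2 fold changes of the 10 genes ran from −0.26 (Axin2) to 0.25 (Cyp1a2), with a median of 0.03. The lowest unadjusted p was that of Cyp1a2 (0.0553, adjusted p = 0.998), whose 95% confidence interval of −0.01 to 0.51 spans from no change to 1.42-fold. The intervals of Rgn (−0.22 to 0.23), Lgr5 (−0.28 to 0.30) and Tbx3 (−0.49 to 0.29) lie on both sides of 0. Non-overlap of all 6 livers with all 6 was seen for 4 genes in GDF15 against Vehicle (3 higher, 1 lower), where 5.75% of genes tested lay wholly higher and 6.94% wholly lower. It was seen for 2 genes in GDF15 against PairFed (both higher, with 4.86% and 5.23% of all genes) and for 0 in PairFed against Vehicle (0.111% and 0.0985%).

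Levels can be compared between genes per length, as CPM per kilobase of the longest coding transcript. In Vehicle livers Cyp2e1 stood first at 2852 ± 462, followed by Glul (667 ± 31.7), Rgn (498 ± 77.8), Oat (362 ± 91.2), Cyp1a2 (122 ± 9.54), Slc1a2 (12.6 ± 1.11), Tbx3 (7.53 ± 1.25), Rhbg (7.47 ± 0.785), Axin2 (3.18 ± 0.675) and Lgr5 (1.32 ± 0.0755). The ranges of Rgn and Oat overlapped (391.9 to 598 and 271 to 505), as did those of Tbx3 and Rhbg (5.88 to 8.73 and 6.35 to 8.31), and the other neighbours in this order did not overlap. In GDF15 livers the per-length level of Rgn (663 ± 40.8) was next to that of Glul (631 ± 39.5), and Rhbg (4.30 ± 0.926) had a lower mean than Tbx3 (9.45 ± 3.11), with ranges that overlapped (2.81 to 5.47 and 4.96 to 14.6). The ranges of Rgn and Glul overlapped as well (619 to 727 and 555 to 661). The genes that rose included the most abundant (Cyp2e1) and the least abundant (Lgr5) of the 10.

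The behaviour of the other lobular genes places these values. Of 19 further pericentral genes, 6 were higher and 5 lower against Vehicle (median log2 fold change 0.12), and 4 were higher and 4 lower against PairFed (median 0.15). With library totals as the scale these became 5 higher and 8 lower (median −0.07) and 4 higher and 7 lower (median −0.01). Cyp2c29 and Cyp2c37, xenobiotic cytochromes, rose by 1.74 (adjusted p = 2.88e-13) and 1.74 (adjusted p = 7.42e-07) and Akr1c6 by 0.35 (adjusted p = 1.91e-07), while Aldh3a2, a fatty aldehyde dehydrogenase, fell by 0.60 (adjusted p = 9.49e-07). Of 19 periportal genes, 12 were higher and 5 lower in both comparisons (median 0.42 against Vehicle, 0.44 against PairFed; 11 and 5 with library totals), with the urea cycle entry enzyme Cps1 at 1.06 (adjusted p = 3.19e-10), Sds, which degrades serine, at 1.16 (adjusted p = 7.33e-11) and the apolipoprotein Apoa4 at −1.59 (adjusted p = 2.74e-20). Alb is in both the periportal list and the hepatocyte markers and gave the median of each against Vehicle, so these medians are not separate values. Of 5 midlobular genes, 4 were higher in both comparisons (median 1.27 and 1.34), among them Igfbp2 at 1.41 (adjusted p = 6.97e-16). Calls in both directions were thus seen in the pericentral and the periportal lists, and a test of the difference between zones was not run. Reads of Cyp2c, Akr1c, Hamp, Mup and Serpina1 genes can be shared with close family members, so single genes of these families are uncertain.

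**Figure D3:**
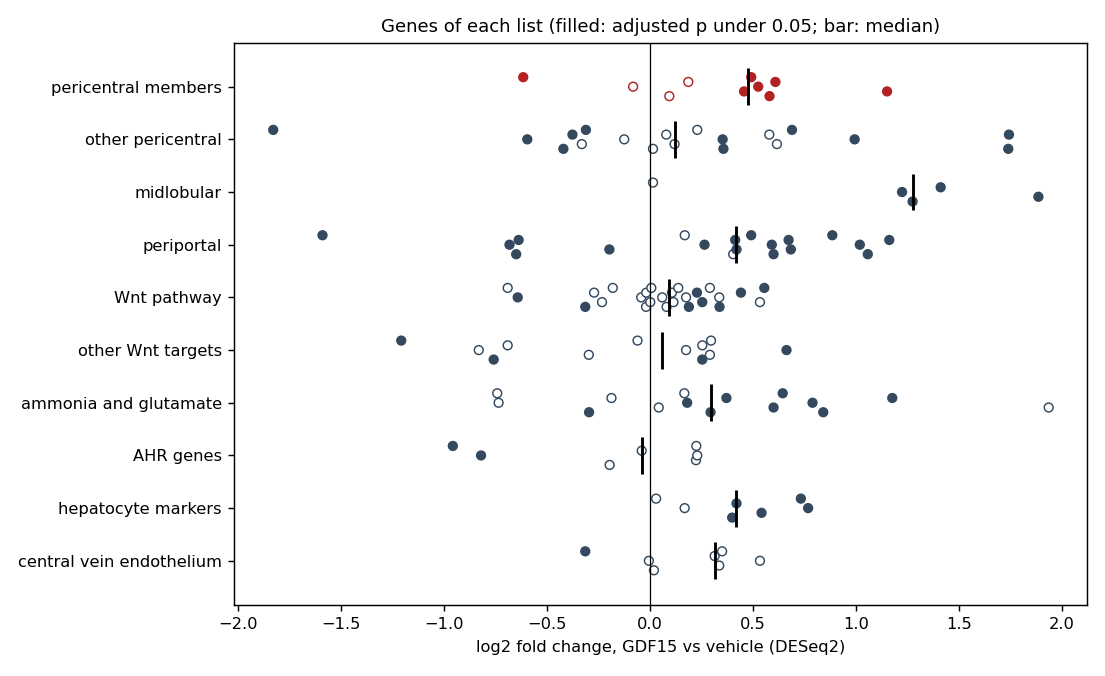
Log2 fold change (DESeq2) of every gene of each list for GDF15 against Vehicle, with the 10 pericentral genes in the top row. Filled points have an adjusted p under 0.05 and the vertical bar is the list median. The pericentral genes have a median of 0.47, the further pericentral genes one of 0.12, the periportal genes one of 0.42 and the midlobular genes one of 1.27. The hepatocyte markers have a median of 0.42. This median and the periportal one are the value of the same gene, Alb, which is in both lists.

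Replicates 1 to 3 and 4 to 6 were also compared apart, because PairFed library totals differed between these sets (17180057 to 17926397 against 25047723 to 35301853). The labels name no batch. Cyp1a2 and Rgn gave like values in both sets, with log2 fold changes against Vehicle of 1.09 and 1.22 for Cyp1a2 and of 0.58 and 0.58 for Rgn. Cyp2e1 did not. In replicates 1 to 3 its mean was 93644 in Vehicle, 91637 in PairFed and 182907 in GDF15 livers, and the log2 fold change was 0.97 (adjusted p = 8.31e-06) against Vehicle and 1.00 (3.85e-06) against PairFed. In replicates 4 to 6 the means were 113071, 138069 and 132127, and the values were 0.22 (0.256) and −0.06 (0.827). Tbx3 gave 0.82 (0.000307) and 1.10 (4.93e-07) in the first set and 0.12 (0.797) and 0.07 (0.889) in the second. Slc1a2 gave 0.75 and 0.65 in the first set, both called, and 0.30 (0.0236) and 0.23 (0.103) in the second. Lgr5 gave 0.44 (0.161) and 0.20 (0.557) in the first set and 0.48 (0.0627) and 0.69 (0.00428) in the second. Rhbg had negative values in both sets, with −0.36 (0.134) and −0.43 (0.0586) in the first and −0.90 (9.59e-06) and −0.57 (0.0126) in the second. The difference between the sets was not tested, nor was the part of library depth in it.

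**Figure D4:**
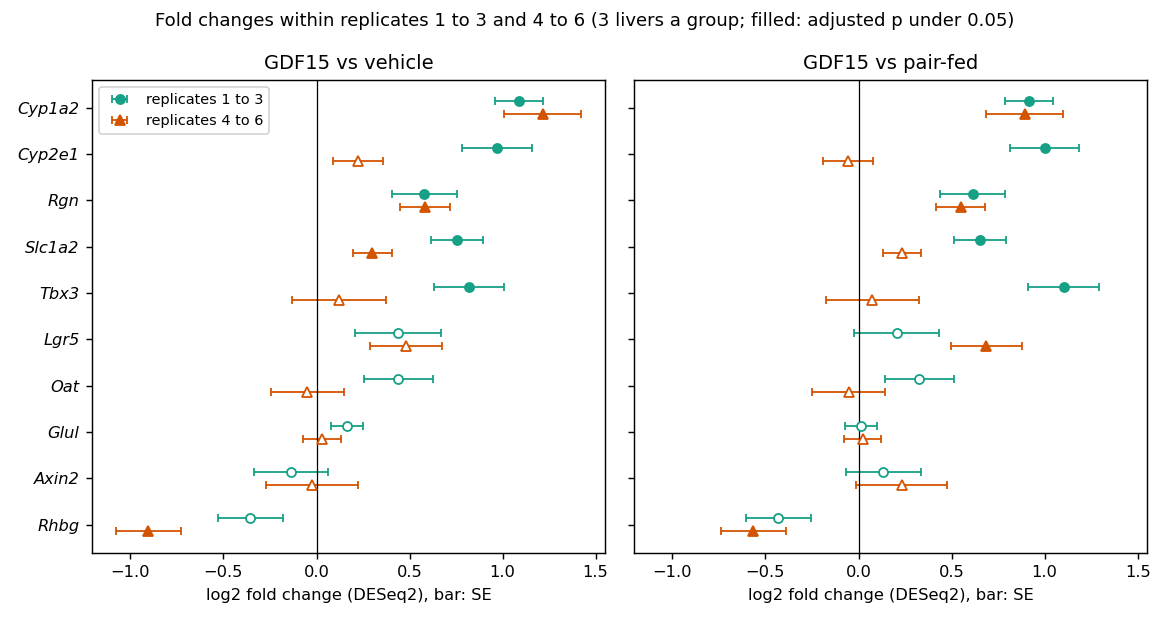
Log2 fold change with its SE (DESeq2, 3 livers a group) of each pericentral gene within replicates 1 to 3 (circles) and replicates 4 to 6 (triangles), against Vehicle on the left and against PairFed on the right. Filled symbols have an adjusted p under 0.05. The symbols of Cyp1a2 and Rgn lie close together, and those of Cyp2e1 and Tbx3 lie apart.

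Covariation within groups was measured on log2(normalized count + 1) after each group's mean was removed, over all 45 pairs of the 10 genes and 18 livers. Pearson's r passed at a Benjamini-Hochberg adjusted permutation p under 0.05 for 5 pairs (two-sided, 100000 permutations within groups), Spearman's rho for 8, and 27 of the 45 coefficients were positive (median r 0.12). Cyp2e1 and Slc1a2 had an r of 0.82 (permutation p = 0.00017, adjusted 0.00765) and a rho of 0.75 (permutation p = 0.00142, adjusted 0.0213), with an r of 0.74 in Vehicle, 0.89 in GDF15 and 0.84 in PairFed livers and of 0.82 without the 2 livers farthest from the median of Cyp2e1. Oat correlated with Rgn (r 0.74, permutation p = 0.00403, adjusted 0.0428; rho 0.75, permutation p = 0.0024, adjusted 0.0226) and with Slc1a2 (r 0.70, permutation p = 0.00129, adjusted 0.0236; rho 0.74, permutation p = 0.00099, adjusted 0.0213). Cyp2e1 correlated with Tbx3 (r 0.65, permutation p = 0.00475, adjusted 0.0428; rho 0.69, permutation p = 0.00251, adjusted 0.0226), and Cyp1a2 with Rgn (r 0.58, permutation p = 0.00157, adjusted 0.0236; rho 0.75, permutation p = 0.00042, adjusted 0.0189). All 5 pairs kept an r above 0.5 without the 2 farthest livers. Glul and Rhbg had an r of 0.66 that did not pass (permutation p = 0.00907, adjusted 0.0583) and that was 0.29 without the 2 farthest livers. The genes of a liver share its library and size factor, and replicates 1 to 3 and 4 to 6 were not separated in these coefficients.

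**Figure D5:**
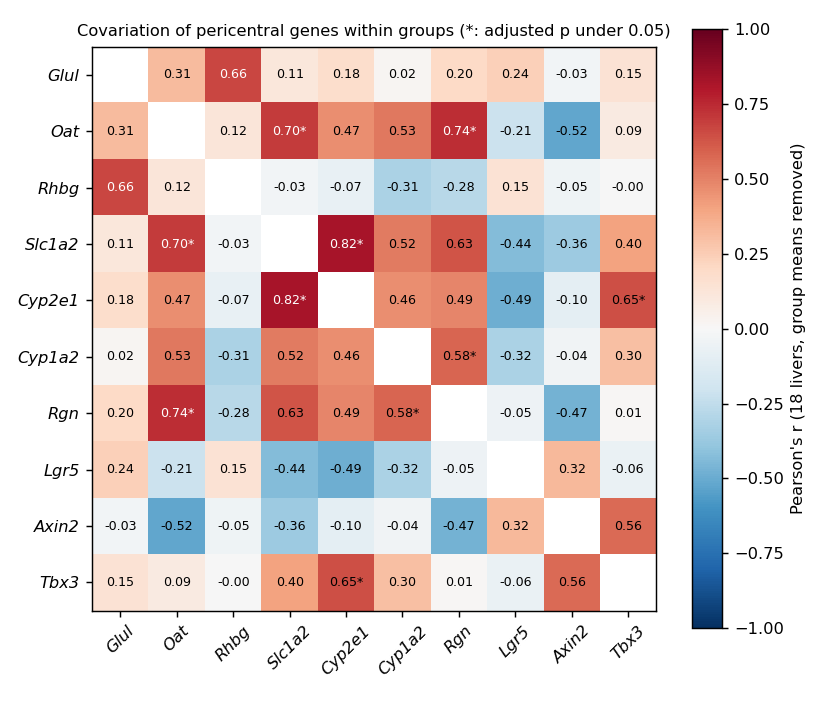
Pearson's r between each pair of pericentral genes over 18 livers after group means were removed, from −1 (blue) to 1 (red). An asterisk marks the 5 pairs with an adjusted permutation p under 0.05, of which Cyp2e1 with Slc1a2 has the highest r, 0.82.

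The genes whose pattern over the 18 livers was most like that of Cyp1a2, among 10882 genes averaging 50 or more normalized counts, were Gba2 (Spearman's rho 0.96), Npr2 (0.96), Apeh (0.95), Hsd11b1 (0.94) and Il1rap (0.94). For Glul they were Rhbdl1 (0.75), Rpn2 (0.74), Yars2 (0.73), Dph1 (0.71) and Tfcp2 (0.71). The 5 genes most like Cyp1a2 were each called higher in GDF15 against Vehicle, with log2 fold changes of 0.25 (Apeh) to 1.11 (Npr2), and the 5 most like Glul were not called, with values of 0.09 (Rpn2) to 0.21 (Rhbdl1). These coefficients include the difference between groups and are given as a description.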

How the data were processed

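Liver RNA of 18 mice was sequenced with a directional library kit (Illumina, paired reads). The authors used Trim Galore on the reads and Salmon for quantification, and deposited estimated counts for each gene symbol as whole numbers, with no correction for depth. The labels name mm10 as the genome build. Tool versions, the transcript annotation and the summing to genes are not given in the sources used here. Groups and replicate numbers came from the sample titles.

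Counts were fitted with DESeq2 1.42.0 (R 4.3.3; Wald test, all 18 samples, group as factor, median-of-ratios size factors, independent filtering, Benjamini-Hochberg), as the study's methods name DESeq2, and a gene was called at an adjusted p under 0.05. Fold changes were not shrunken. The script was tested on simulated counts. edgeR 4.0.16 (quasi-likelihood test, TMM), other filters and scalings, a replicate block, replicate sets and leaving out each sample were alternatives, and scaling by library totals was added after the data were seen. The members, lists, naming rule and tests were chosen with earlier results of these data known. All 10 members were named; of each list, up to 4 genes with the lowest adjusted p against Vehicle, plus genes a role needed (Wnt2, Wnt9b, Rspo3, Rnf43, Znrf3, Ahr, Cyp1a1, Gulo, Gls2, Slc38a3), and the 5 genes most like Glul and Cyp1a2. Sinusoidal endothelium (8 genes) had 1 gene higher and 1 lower against Vehicle and 0 and 1 against PairFed. Correlations were computed in Python 3.11.15 with numpy 2.4.6. Gene positions are from GENCODE and promoter sequences from RefSeq, both on GRCm38. Reads carry no molecular identifiers, so the floor of 3 counts covers counting error only. Library totals were 16508864 to 35301853, and counting error weighs most on Lgr5, Axin2 and Rhbg, the genes with the lowest counts. A list gene that the naming rule would give is not reported here.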

Additional observations from a re-analysis of the deposited data

Results flagged for a closer look

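Among 30 sets of 6 livers (10 genes in 3 groups), 1 held a liver far from the others by Dixon's criterion, where chance gives about 1.5. It was PairFed replicate 5 for Tbx3, at 1104 normalized counts, with the next PairFed liver at 671 and a gap of 0.773 of the group's range.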

How the results depend on the processing

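Of the 10 genes, 7 were called in each GDF15 comparison, beside 33.3% (Vehicle) and 27.1% (PairFed) of all genes tested. With the fold threshold as well, 1 was called against Vehicle and 0 against PairFed. That gene, Cyp1a2, had a log2 fold change of 0.98 against Vehicle with library totals as the scale, below the fold threshold. Replicates 4 to 6 alone gave 4 and 4, replicates 1 to 3 alone 5 and 5, both with fewer samples, edgeR 6 and 6, library totals 5 and 5, and TMM size factors, a minimum of 10 counts in 6 samples, no independent filtering and the 12 samples compared 7 and 7. Of all genes tested, 18.9% and 16.7% were called in replicates 4 to 6 and 21.9% and 23.1% in replicates 1 to 3. The edgeR shares were 34.6% and 27.9%. With library totals, calls over all genes went from 4885 to 5668 and from 3894 to 5065. There the 5 members called against PairFed included Glul as lower, and Cyp2e1, Lgr5 and Tbx3 were not called. When 1 liver at a time was left out, 6 to 7 of the 10 genes were called against Vehicle and 5 to 7 against PairFed. In PairFed against Vehicle 0 of the 10 genes were called under every setting above. The number of covarying pairs was 5 on TMM-scaled values also.

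Values that turned in sign, none of them called except Glul against PairFed with library totals, were as follows. With library totals Glul was −0.080 against Vehicle and −0.16 against PairFed, and Oat −0.031 against PairFed. In replicates 4 to 6 Oat was −0.051 against Vehicle and −0.052 against PairFed, and Cyp2e1 −0.058 against PairFed. In PairFed against Vehicle, replicates 4 to 6 gave −0.21 for Lgr5 and 0.047 for Tbx3, replicates 1 to 3 gave −0.030 for Cyp2e1, 0.076 for Rhbg and −0.034 for Rgn, and edgeR gave −0.0013 for Rgn. Leaving out 1 liver gave −0.012 to 0.056 for Glul against PairFed, and in PairFed against Vehicle −0.087 to 0.11 for Lgr5, −0.032 to 0.18 for Oat and −0.068 to 0.085 for Rgn. The cause of these turns was not tested.

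Replicate numbers are shared between groups. The mean correlation of deviations of same-numbered livers was −0.06 for GDF15 with Vehicle, 0.03 for GDF15 with PairFed and 0.21 for PairFed with Vehicle (other numbers −0.04), over 0.1 in 2, 3 and 4 of 6 pairs. All 6 PairFed and Vehicle pairs were positive (0.036 to 0.62), but not all were over 0.1 and 3 of 12 livers correlated best with their own number, so the numbers were not taken as pairs. With a replicate block 7 genes were called in each GDF15 comparison, the same ones as without it, and 0 in PairFed against Vehicle.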
